A study of Mus musculus with 16 samples.

Results

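Loss of the kinase MEKK1 was examined in mammary fibroblasts that had been exposed to medium conditioned by MDA-MB-231 cells, a human breast cancer cell line. The members are the 4 arrays titled MEKK1-/- treated and the 4 titled MEKK1+/+ treated, 8 of the 16 arrays of the series, and all 18132 genes of the deposited table were compared. The other 8 arrays are untreated cells of the same genotypes, 4 of each. All groups are primary fibroblasts from the inguinal mammary gland of female 129S6 mice aged 8 to 10 weeks, cultured in DMEM with 10% FBS. The conditioned medium was the same growth medium after culture with the tumor cells, and both media were left on the fibroblasts for 8 h before RNA was taken. Each genotype had fewer mice than a group had cultures, so some cultures of a group share a mouse, and which ones is not stated in the sources used here. The p-values therefore measure the spread between cultures and may be too small. They do not separate the spread between mice from that between cultures of the same mouse. The animals carried the deletion in all cells, and which part of the gene it removed is not stated in the sources used here. The fibroblasts were enriched by digestion and settling, in which fat and an epithelial pellet were discarded, and were not sorted.

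MEKK1, the product of the gene MAP3K1, is a MAP kinase kinase kinase that also carries a ubiquitin ligase domain. It phosphorylates kinases that activate JNK and ERK, which act on the AP-1 transcription factors, and it can activate the IKK complex, which releases NF-kB. In fibroblasts of the tumor stroma these routes are known for the control of cytokines, proteases and matrix genes.

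Each value is a log2 intensity after quantile normalization, which gives all arrays the same distribution. On this scale a step of 1 is a change of 2-fold. The genotypes were compared with limma, a linear model with moderated variances, fitted to all 16 arrays and adjusted by the Benjamini-Hochberg method over all genes. Before normalization the median intensity of an array was between 114 and 122 on MEKK1+/+ arrays with conditioned medium and between 123 and 170.1 on those labelled MEKK1-/-. The level of no signal on each array was the 99th percentile of 1075 olfactory receptor genes, and 7758 genes were above it on all 4 arrays of at least 1 of the groups in conditioned medium. The number of arrays limits the precision, and 4 arrays against 4 cannot give a 2-sided exact permutation p below 0.0286. For MAP3K1 itself the log2 intensity was 7.42, 7.71, 8.18 and 7.64 on the MEKK1+/+ arrays and 8.08, 7.79, 8.29 and 8.13 on those labelled MEKK1-/-, a log2 difference of 0.33 (standard error 0.15, adjusted p = 0.605 from limma). The groups overlapped and the deleted gene was not the lower one. In untreated cells MAP3K1 was higher on the arrays labelled MEKK1-/- and the groups did not overlap (log2 difference 0.53, adjusted p = 0.465 from limma). Where in the transcript the array reads is not given in the sources used here. Genotype is taken from the labels throughout.

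Several arrays stood apart from the rest of their group. The level of a gene list on an array is the mean over its genes of the log2 intensity centred on the mean of all 16 arrays. For 44 macrophage markers it was 0.56, -0.09, 0.50 and 0.34 on MEKK1+/+ replicates 1 to 4 in conditioned medium and -0.14, 0.21, -0.67 and -0.66 on those labelled MEKK1-/-. Replicate 2 was thus the lowest of the MEKK1+/+ arrays and the highest of the MEKK1-/- arrays, and the replicates numbered 2 crossed in the same way in untreated cells. MEKK1+/+ replicate 4 had the highest level of interferon-stimulated genes, 1.18 against -0.12 to 0.20 on the other 3 arrays of its group. MEKK1-/- replicate 1 had the highest level of epithelial markers, 0.99 against -0.22 to -0.02. On that array KRT14, a keratin of basal epithelium, was at 11.48, and KRT8, a keratin of luminal epithelium, was at 11.61, where the other MEKK1-/- arrays reached at most 7.55 and 8.10. POU6F1 and the macrophage, interferon-stimulated, endothelial, epithelial and cell cycle lists are given below with and without arrays of this kind. Most other results are given with all arrays only. KRT8 and KRT14 were chosen after their values were seen.

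**Figure D1:**
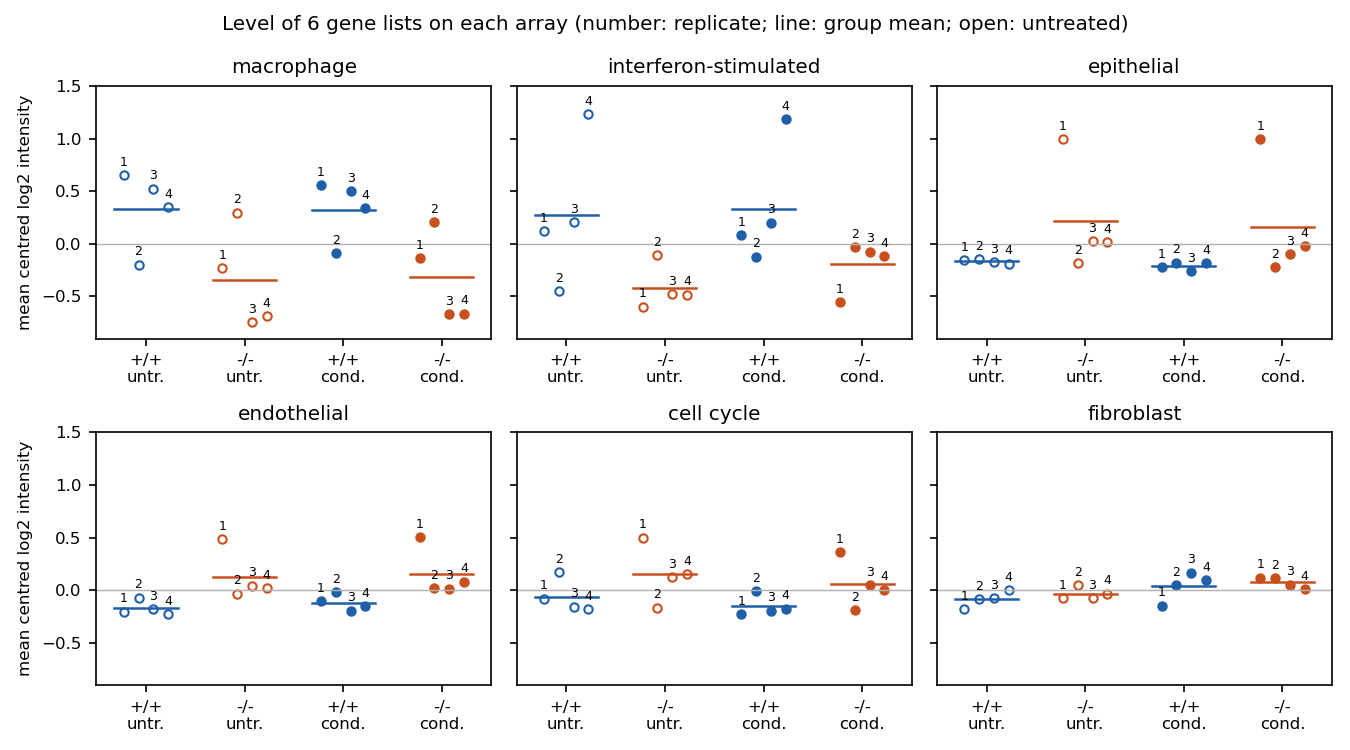
Mean centred log2 intensity (y axis) of 6 gene lists on each of the 16 arrays, by genotype and treatment (x axis), with open points for untreated cells, filled points for conditioned medium, the replicate number above each point and a line at the group mean. For the macrophage list the arrays numbered 2 crossed the genotype groups, for interferon-stimulated genes MEKK1+/+ replicate 4 stood at 1.18, and for epithelial markers MEKK1-/- replicate 1 stood at 0.99.

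Across all genes, POU6F1 was the only gene past an adjusted p of 0.05 in conditioned medium, 1 of 18132 or 0.00552%. At an unadjusted p under 0.05 there were 1466 genes (8.09%), of which 804 were higher (4.43%) and 662 lower (3.65%) on the arrays labelled MEKK1-/-. No array of one genotype reached the range of the other for 422 genes that were higher (2.33%) and 335 that were lower (1.85%) in MEKK1-/-, which is meant below by groups that did not overlap. The split of directions depended on the scaling: of the genes with an unadjusted p under 0.05, 54.8% were higher after quantile normalization, 15.4% after scaling to the same median and 99.4% in the values as deposited, in which the median gene was higher by 0.28.

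POU6F1, a POU homeodomain transcription factor, rose in the MEKK1-/- cells. It lay at log2 intensities of 6.58, 6.57, 6.51 and 6.79 in MEKK1+/+ replicates 1 to 4 and of 7.74, 8.08, 8.74 and 8.68 in MEKK1-/- replicates 1 to 4, the order in which array values are given throughout. All 4 MEKK1+/+ arrays were below the level of no signal and all 4 MEKK1-/- arrays were above it. The means were 6.61 ± 0.12 and 8.31 ± 0.48 (SD, n = 4), and the log2 difference was 1.70 (standard error 0.20, adjusted p = 0.0101 from limma, exact permutation p = 0.0286). Because no MEKK1+/+ array was above that level, POU6F1 was at least 2.12-fold higher, set against the level of no signal. In untreated cells POU6F1 was 6.77, 7.01, 6.69 and 6.81 on the MEKK1+/+ arrays and 7.52, 8.05, 8.31 and 8.31 on the MEKK1-/- arrays, so that it separated all 16 arrays by their genotype label. The untreated log2 difference was 1.23 (adjusted p = 0.401 from limma), and the interaction of genotype with conditioned medium was 0.47 (adjusted p = 1.00 from limma).

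The call for POU6F1 in conditioned medium depended on which array was left out. It held without MEKK1+/+ replicate 1 or 4 (adjusted p = 0.0354 and 0.0323 from limma). It also held without MEKK1-/- replicate 1 or 2 (adjusted p = 0.00126 and 0.0241 from limma). The call was lost without any of the other arrays. The adjusted p of POU6F1 from limma was then 0.0592 without MEKK1+/+ replicate 2, 0.0747 without MEKK1+/+ replicate 3, 0.051 without MEKK1-/- replicate 3 and 0.063 without MEKK1-/- replicate 4, with log2 differences from 1.55 to 1.69. In a fit without the untreated arrays the log2 difference was 1.66 (adjusted p = 0.175 from limma), and without both arrays numbered 2 it was 1.79 (adjusted p = 0.116 from limma). Of the 13 genes of the POU family in the table, 7 were higher and 6 lower, and POU6F1 alone passed over all genes. An unadjusted p under 0.05 was found for 2 of the 13, both higher (15.4%, beside 4.43% of all genes). POU6F1 itself was 1 of these 2, so the share does not stand apart from that gene. The other was PIT1, chosen after its values were seen, which was below the level of no signal on all 8 arrays and higher by 0.18.

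The POU6F1 promoter, from 250 bases before to 50 after the start (RefSeq, GRCm38.p6, chr15:100599935-100600234, minus strand), is shown because this gene carried the only call. It held no match to the 4 motifs searched, which are given with the gene groups below.
POU6F1: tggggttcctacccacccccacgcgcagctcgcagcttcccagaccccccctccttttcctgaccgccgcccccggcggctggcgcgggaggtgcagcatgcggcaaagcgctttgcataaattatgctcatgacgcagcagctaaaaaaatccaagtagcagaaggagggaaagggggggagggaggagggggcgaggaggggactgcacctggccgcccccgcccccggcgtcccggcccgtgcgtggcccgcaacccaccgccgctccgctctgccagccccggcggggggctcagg

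Beyond POU6F1, the largest differences between arrays that did not overlap were on the lower side. Of the 12 largest, 2 were the chemokines CCL3 and CCL5, with log2 differences of -2.13 and -1.64, and the other 10 ran from -1.16 to -0.68. None of the 12 passed over all genes, with adjusted p from 0.398 to 0.660 by limma. The next gene by size was H2-DMB1, which was left outside the 12 at -0.68 and encodes a chain of the chaperone that loads peptides on MHC class II.

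Among the 10 were genes known from blood cells, and none of the 12 belonged to the macrophage list described below. MS4A6D, a membrane protein of the MS4A family, was at 9.67, 8.76, 9.60 and 9.56 on MEKK1+/+ arrays and at 8.72, 8.66, 7.78 and 7.80 on MEKK1-/- arrays (log2 difference -1.16, standard error 0.36, adjusted p = 0.520 from limma). MEKK1+/+ replicate 2 lay just above the 2 highest MEKK1-/- arrays, so the gap between the groups was narrow. PTPN6, the phosphatase SHP-1 of blood cells, was at 8.48, 8.01, 8.34 and 8.20 against 7.47, 7.93, 7.26 and 7.17 (log2 difference -0.80, adjusted p = 0.530 from limma). FYB, an adaptor protein of T cells and myeloid cells, was at 8.05, 7.88, 8.19 and 7.86 against 7.31, 7.43, 7.03 and 7.02 (log2 difference -0.79, adjusted p = 0.497 from limma), a wider gap than that of PTPN6. GMFG, an actin regulator of blood cells, had a log2 difference of -0.73, and on 3 of the 4 MEKK1-/- arrays it was above the level of no signal.

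AQP9, a channel for water and glycerol, was at 8.16, 7.71, 8.20 and 7.90 on MEKK1+/+ arrays and at 7.12, 7.54, 7.07 and 6.97 on MEKK1-/- arrays, of which 1 was above the level of no signal. Its log2 difference of -0.82 had a standard error of 0.17 and an adjusted p of 0.398 from limma. TNF, the inflammatory cytokine, was at 8.24, 8.03, 8.60 and 8.41 against 7.82, 8.03, 7.12 and 7.08 (log2 difference -0.81, adjusted p = 0.620 from limma), and both arrays numbered 2 were equal at 2 decimals. SMPDL3A, a phosphodiesterase related to acid sphingomyelinase, had a log2 difference of -0.72 (adjusted p = 0.538 from limma).

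The remaining 3 were genes that interferons induce. GBP3, a guanylate-binding GTPase, was at 10.05, 9.96, 10.64 and 11.60 on MEKK1+/+ arrays and at 8.20, 9.65, 9.95 and 9.89 on MEKK1-/- arrays (log2 difference -1.14, standard error 0.64, adjusted p = 0.660 from limma). The highest MEKK1+/+ array was replicate 4 and the lowest MEKK1-/- array was replicate 1, and without these the groups lay close together. STAT2, a subunit of the transcription factor that type I interferons activate, was at 8.33, 8.37, 8.61 and 9.72 against 7.57, 8.19, 8.09 and 8.27 (log2 difference -0.73, adjusted p = 0.605 from limma), with the same 2 arrays at the extremes. SAMD9L, an antiviral gene, had a log2 difference of -0.68 with MEKK1+/+ replicate 4 at 11.90 and MEKK1-/- replicate 1 at 9.95.

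**Figure D2:**
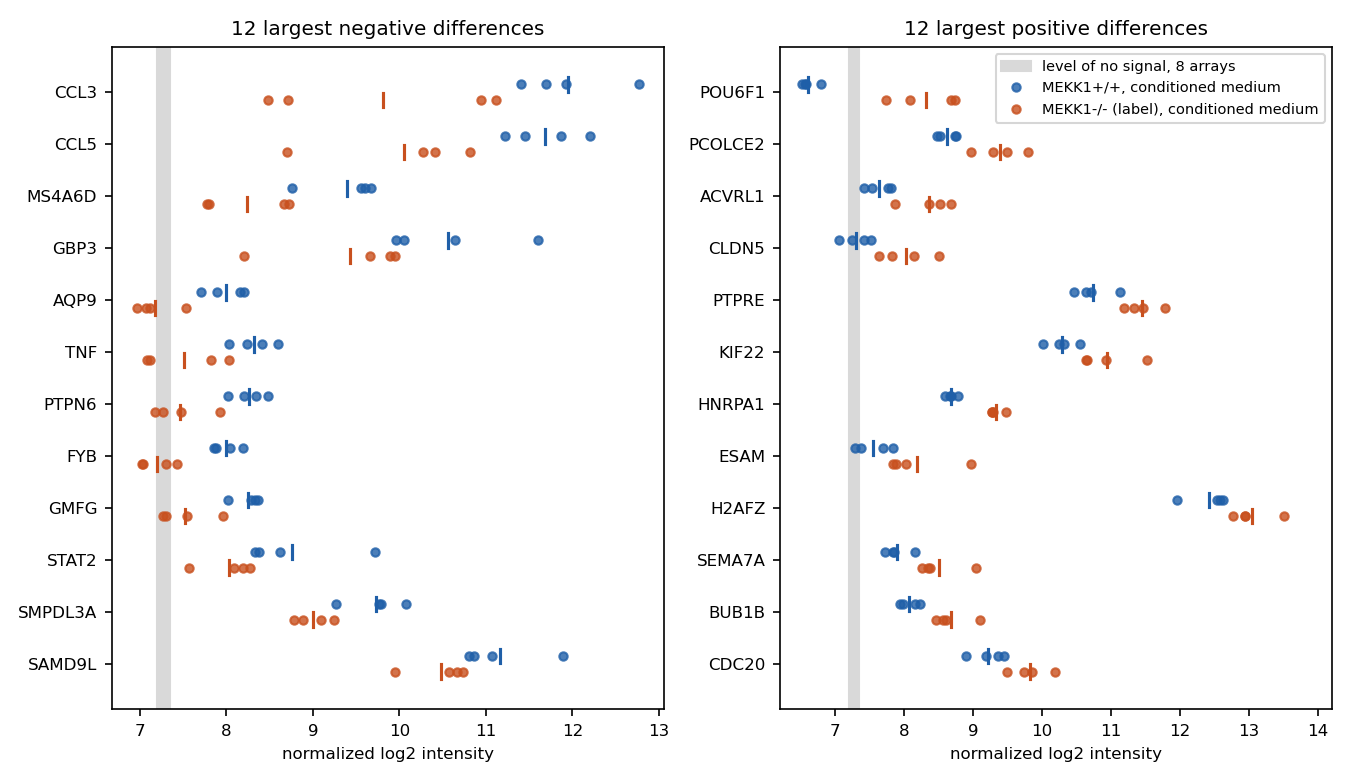
Normalized log2 intensity (x axis) of the 12 genes with the largest negative and the 12 with the largest positive log2 difference among genes whose groups did not overlap, with a point for each of the 4 arrays of a genotype in conditioned medium and a tick at the mean. The grey band spans the level of no signal of these 8 arrays; POU6F1 lay below it on all 4 MEKK1+/+ arrays, and CCL3 had the largest negative difference, -2.13.

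Most macrophage markers had lower values on the arrays labelled MEKK1-/-. Of 44 genes, 40 were lower and 4 higher, where over all genes 48.4% were lower. The median log2 difference was -0.55, beside 0.00 over all genes, 25 of the 44 were above the level of no signal on all 4 arrays of a group, and 18 of the 44 had an unadjusted p under 0.05 with a lower value (40.9%, beside 3.65% of all genes). Their groups did not overlap for 3 genes that were lower and 1 that was higher, beside 1.85% and 2.33% of all genes. None of the 44 passed over all genes. The direction of the median held in the values as deposited (-0.34, against a shift of 0.28 in the median gene) and after scaling to the same median (-0.65). In bulk samples such as these, fewer cells of a type and less RNA per cell cannot be told apart.

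The abundant markers followed the array order given above. C1QB, a chain of complement C1q made by macrophages, was at 11.42, 9.96, 10.85 and 10.46 on MEKK1+/+ arrays and at 8.96, 10.68, 8.21 and 8.48 on MEKK1-/- arrays (log2 difference -1.59, standard error 0.54, adjusted p = 0.538 from limma). CORO1A, an actin-binding coronin of blood cells, was at 9.55, 8.83, 9.24 and 9.04 against 8.11, 9.01, 7.60 and 7.72 (log2 difference -1.05, adjusted p = 0.523 from limma). For both genes the groups overlapped through the arrays numbered 2. AIF1, a calcium-binding protein of macrophages, was at 7.57, 7.42, 7.31 and 7.74 against 7.10, 7.15, 6.93 and 6.92 (log2 difference -0.49, adjusted p = 0.398 from limma), and no MEKK1-/- array was above the level of no signal, so AIF1 was at least 1.16-fold lower.

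Defining members of the list were not all above the level of no signal. PTPRC, the common antigen of white blood cells, and ITGAM, ITGAX, FCER1G, CYBB, NCF1, MSR1 and CSF2RB were below it on all 8 arrays, while LYZ2 and CD14, which encode lysozyme and a receptor for bacterial lipopolysaccharide, reached 13.97 and 12.27. These genes were chosen after their values were seen. The summed normalized intensity of the list ran from 37226 to 95720 on MEKK1+/+ arrays and from 19387 to 71993 on MEKK1-/- arrays, so the groups overlapped. Of 14 lymphocyte markers, 1 was above the level of no signal in a group in conditioned medium, and their median log2 difference was 0.02. Whether the share of macrophages in the cultures accounts for other differences was not tested.

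Without both arrays numbered 2, the median of the macrophage list was -0.80, 27 of the 44 genes had an unadjusted p under 0.05 with a lower value and the groups did not overlap for 30 that were lower, with 0 past the threshold over all genes. In that setting of 3 arrays against 3 the shares over all genes were larger too, 5.54% lower at an unadjusted p under 0.05 and 8.43% lower without overlap. The count at an unadjusted p under 0.05 was 9 without MEKK1+/+ replicate 1, 11 without MEKK1+/+ replicate 3, 9 without MEKK1-/- replicate 3 and 5 without MEKK1-/- replicate 4. Of all genes, 3.91%, 3.49%, 3.58% and 2.82% were lower at that p in these settings. The count of lower genes without overlap was 19 without MEKK1+/+ replicate 2, 20 without MEKK1-/- replicate 2 and 5 without MEKK1-/- replicate 3, beside 4.66%, 4.33% and 3.65% of all genes in those settings. With any single array left out, between 36 and 41 of the 44 were lower.

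Interferon-stimulated genes were lower as well. Of 38, 24 of them above the level of no signal, 36 were lower and 2 higher, with a median log2 difference of -0.51, and 4 had an unadjusted p under 0.05, all lower (10.5%, beside 3.65% of all genes). The groups did not overlap for 4 of the 38 genes, all lower, beside 1.85% of all genes, and none passed over all genes. IRF8, a factor of the myeloid lineage that is also induced by interferon gamma, was at 7.78, 7.73, 8.13 and 7.70 on MEKK1+/+ arrays and at 7.38, 7.69, 7.26 and 6.88 on MEKK1-/- arrays (log2 difference -0.53, adjusted p = 0.538 from limma). IRF9, the DNA-binding partner of STAT2, was at 8.25, 8.30, 8.59 and 9.09 against 7.82, 8.20, 8.40 and 8.06 (log2 difference -0.44, adjusted p = 0.605 from limma), with overlapping groups.

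The size of this shift came in large part from MEKK1+/+ replicate 4. IFIT3, an antiviral protein with tetratricopeptide repeats, was at 9.90, 9.97, 10.00 and 13.30 on MEKK1+/+ arrays and at 7.54, 10.07, 9.81 and 9.76 on MEKK1-/- arrays, and USP18, a protease that removes ISG15, was at 9.13, 8.35, 9.20 and 11.54 against 7.55, 8.67, 8.35 and 8.34. Both were chosen after their values were seen, and for both the groups overlapped with and without MEKK1+/+ replicate 4. MEKK1-/- replicate 1 was the lowest array for both. Without MEKK1+/+ replicate 4 the median of the list was -0.21, with 36 of 38 genes lower. The count at an unadjusted p under 0.05 was 2 without that array, 0 without MEKK1+/+ replicate 3, 1 without MEKK1-/- replicate 1, 1 without MEKK1-/- replicate 4 and 11 without MEKK1+/+ replicate 2. In the same order, 2.88%, 3.49%, 2.82%, 2.82% and 4.89% of all genes were lower at that p. The groups did not overlap for 12 lower genes without MEKK1+/+ replicate 2, for 8 without MEKK1-/- replicate 2 and for 20 without both, where the median was -0.69 and 11 genes had an unadjusted p under 0.05. Over all genes, 4.66%, 4.33% and 8.43% were lower without overlap in these settings, and 5.54% were lower at an unadjusted p under 0.05 without both arrays. As deposited, 25 of the 38 were lower and 13 higher with a median of -0.27, and after scaling to the same median the list median was -0.58.

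The promoters of these genes were searched on both strands for the core of the interferon-stimulated response element, written as GAAANNGAA. Of the 38 genes, 28 had a promoter in the RefSeq table, 36 promoters in all, and 17 of these (47.2%) held the motif, beside 8.56% of all 32851 promoters of the same length. The AP-1 motif TGANTCA was in 19.4% of the 36 and 7.81% of all. Of the macrophage list, 27 genes had 31 promoters, and the PU.1 box GAGGAAGT was in 2 of them (6.45%, beside 3.20% of all) and the response element core in 6 (19.4%). Of the 12 largest lower genes 9 had a promoter in the table, and 5 of these held the core: CCL3, FYB, GBP3, STAT2 and SAMD9L. The promoters of GBP3 (chr3:142559794-142560093, plus strand, 2 overlapping matches) and STAT2 (chr10:128270248-128270547, plus strand) are shown, with the core in capitals, because both genes also belong to the interferon-stimulated list. A match is a description of the sequence and not of binding.
GBP3: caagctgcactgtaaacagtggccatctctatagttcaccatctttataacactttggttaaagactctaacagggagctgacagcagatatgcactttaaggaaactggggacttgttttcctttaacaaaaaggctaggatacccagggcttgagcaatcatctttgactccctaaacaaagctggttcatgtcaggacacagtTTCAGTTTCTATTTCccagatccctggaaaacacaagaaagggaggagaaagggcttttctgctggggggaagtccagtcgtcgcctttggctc
STAT2: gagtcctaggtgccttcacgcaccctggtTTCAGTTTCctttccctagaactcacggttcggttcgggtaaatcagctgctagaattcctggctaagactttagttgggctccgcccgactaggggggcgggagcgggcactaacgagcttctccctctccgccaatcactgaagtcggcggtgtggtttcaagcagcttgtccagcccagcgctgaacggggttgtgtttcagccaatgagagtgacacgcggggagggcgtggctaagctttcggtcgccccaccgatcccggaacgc

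The largest higher genes after POU6F1 had log2 differences from 0.60 to 0.76. PCOLCE2, an enhancer of procollagen processing, was at 8.74, 8.52, 8.48 and 8.76 on MEKK1+/+ arrays and at 9.79, 8.96, 9.29 and 9.50 on MEKK1-/- arrays (log2 difference 0.76, standard error 0.19, adjusted p = 0.406 from limma). ACVRL1, a type I receptor for ligands of the TGF-beta family, was at 7.41, 7.54, 7.81 and 7.77 against 7.88, 8.37, 8.53 and 8.67 (log2 difference 0.73, adjusted p = 0.398 from limma), with MEKK1-/- replicate 1 next to the MEKK1+/+ range. HNRPA1, an RNA-binding protein of splicing, was at 8.78, 8.69, 8.67 and 8.60 against 9.28, 9.29, 9.27 and 9.47 (log2 difference 0.64, adjusted p = 0.398 from limma), with a clear gap between the groups. PTPRE, a receptor-type tyrosine phosphatase, had a log2 difference of 0.70, and SEMA7A, a membrane-anchored semaphorin, of 0.61. None of these passed over all genes.

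Endothelial markers were higher in 12 of 14 and lower in 2, 5 of the 14 being above the level of no signal, with a median log2 difference of 0.18, and 4 had an unadjusted p under 0.05, all higher (28.6%, beside 4.43% of all genes). CLDN5, a tight junction protein of endothelium, was at 7.42, 7.52, 7.24 and 7.06 on MEKK1+/+ arrays and at 8.51, 8.15, 7.64 and 7.82 on MEKK1-/- arrays (log2 difference 0.72, adjusted p = 0.427 from limma). ESAM, an adhesion molecule of endothelial cells, was at 7.70, 7.84, 7.28 and 7.37 against 8.97, 7.85, 7.89 and 8.03 (log2 difference 0.64, adjusted p = 0.622 from limma), and the arrays numbered 2 nearly met. EMCN, an endothelial sialomucin, was at 7.54, 7.94, 7.20 and 7.06 against 9.14, 7.75, 8.10 and 7.89 (log2 difference 0.79, adjusted p = 0.581 from limma), with overlapping groups.

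MEKK1-/- replicate 1 was the highest array for CLDN5, ESAM and EMCN, and its level of the whole endothelial list was 0.50 against 0.01 to 0.08 on the other MEKK1-/- arrays. Without it the median of the list was 0.09, 9 of 14 genes were higher and 1 had an unadjusted p under 0.05. That count was 1 without MEKK1+/+ replicate 3, 2 without MEKK1+/+ replicate 4 and 7 without both arrays numbered 2, where 7 genes did not overlap (beside 9.63% of all genes on the higher side), and 4 genes did not overlap without MEKK1+/+ replicate 2 or without MEKK1-/- replicate 2 (beside 5.63% and 4.68%). Of all genes, 3.57% were higher at that p without MEKK1-/- replicate 1 or without MEKK1+/+ replicate 3. The share was 3.08% without MEKK1+/+ replicate 4 and 6.54% without both arrays numbered 2. The defining genes PECAM1, CDH5, KDR, VWF and TIE1, chosen after their values were seen, were below the level of no signal on all 4 MEKK1+/+ arrays and on at least 3 of the MEKK1-/- arrays. Epithelial markers were higher in 18 of 23 with a median of 0.11, which was 0.06 without MEKK1-/- replicate 1, and the summed intensity of that list reached 14364 on this array against 2829 to 3031 on MEKK1+/+ arrays. The part of epithelial or endothelial cells in the other differences was not tested.

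Genes of the cell cycle were higher in 27 of 36 and lower in 9, 25 of the 36 being above the level of no signal, with a median log2 difference of 0.23. At an unadjusted p under 0.05 there were 4 (11.1%, beside 4.43% of all genes), all higher. The groups did not overlap for 6 of the 36, all higher, beside 2.33% of all genes. BUB1B, a kinase of the spindle checkpoint, was at 8.15, 8.24, 7.94 and 7.99 on MEKK1+/+ arrays and at 9.11, 8.61, 8.46 and 8.56 on MEKK1-/- arrays (log2 difference 0.61, standard error 0.17, adjusted p = 0.473 from limma). CDC20, an activator of the anaphase-promoting complex, was at 9.18, 9.45, 8.89 and 9.37 against 10.19, 9.50, 9.74 and 9.86 (log2 difference 0.60, adjusted p = 0.613 from limma). RRM2, a subunit of ribonucleotide reductase, was at 8.77, 8.69, 8.58 and 8.68 against 9.36, 8.81, 9.08 and 8.97 (log2 difference 0.37, adjusted p = 0.568 from limma). In all 3 genes the groups did not overlap and MEKK1-/- replicate 1 was the highest array.

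Outside this list, the 12 largest higher genes held KIF22, a kinesin of mitotic chromosomes, with a log2 difference of 0.65, and H2AFZ, the histone variant H2A.Z, with 0.62 (adjusted p = 0.581 and 0.550 from limma). Without MEKK1-/- replicate 1 the median of the cell cycle list was 0.13 with 28 of 36 higher. At an unadjusted p under 0.05 there was then 1 higher and 1 lower, beside 3.57% and 2.82% of all genes. The count higher at that level was 2 without MEKK1+/+ replicate 1, 1 without MEKK1+/+ replicate 3, 2 without MEKK1+/+ replicate 4, 2 without MEKK1-/- replicate 4, 10 without MEKK1+/+ replicate 2 and 9 without MEKK1-/- replicate 2. In the same order, 4.59%, 3.57%, 3.08%, 3.45%, 6.04% and 4.97% of all genes were higher at that level. Without both arrays numbered 2 it was 13, the median was 0.36 and the groups did not overlap for 20 of the 36, and they did not overlap for 12 without MEKK1+/+ replicate 2 and 11 without MEKK1-/- replicate 2. The shares of all genes that were higher without overlap were 9.63%, 5.63% and 4.68% in these settings, and 6.54% were higher at an unadjusted p under 0.05 without both arrays. After scaling to the same median 25 of 36 were higher with a median of 0.11.

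The cell cycle promoters were searched for TTTGAA, the core of the cell cycle genes homology region, on both strands. Of the 36 genes 30 had 33 promoters, and 12 of these (36.4%) held it, beside 17.9% of all promoters of this length. The promoter of CDC20 (chr4:118437294-118437593, minus strand) is shown as a member of the list that was also among the 12 largest, with the motif in capitals.
CDC20: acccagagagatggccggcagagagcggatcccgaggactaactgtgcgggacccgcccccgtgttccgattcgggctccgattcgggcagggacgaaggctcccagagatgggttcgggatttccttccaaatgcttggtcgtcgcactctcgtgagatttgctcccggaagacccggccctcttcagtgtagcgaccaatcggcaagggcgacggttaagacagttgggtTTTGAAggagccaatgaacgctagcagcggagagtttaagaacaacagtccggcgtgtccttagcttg

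**Figure D3:**
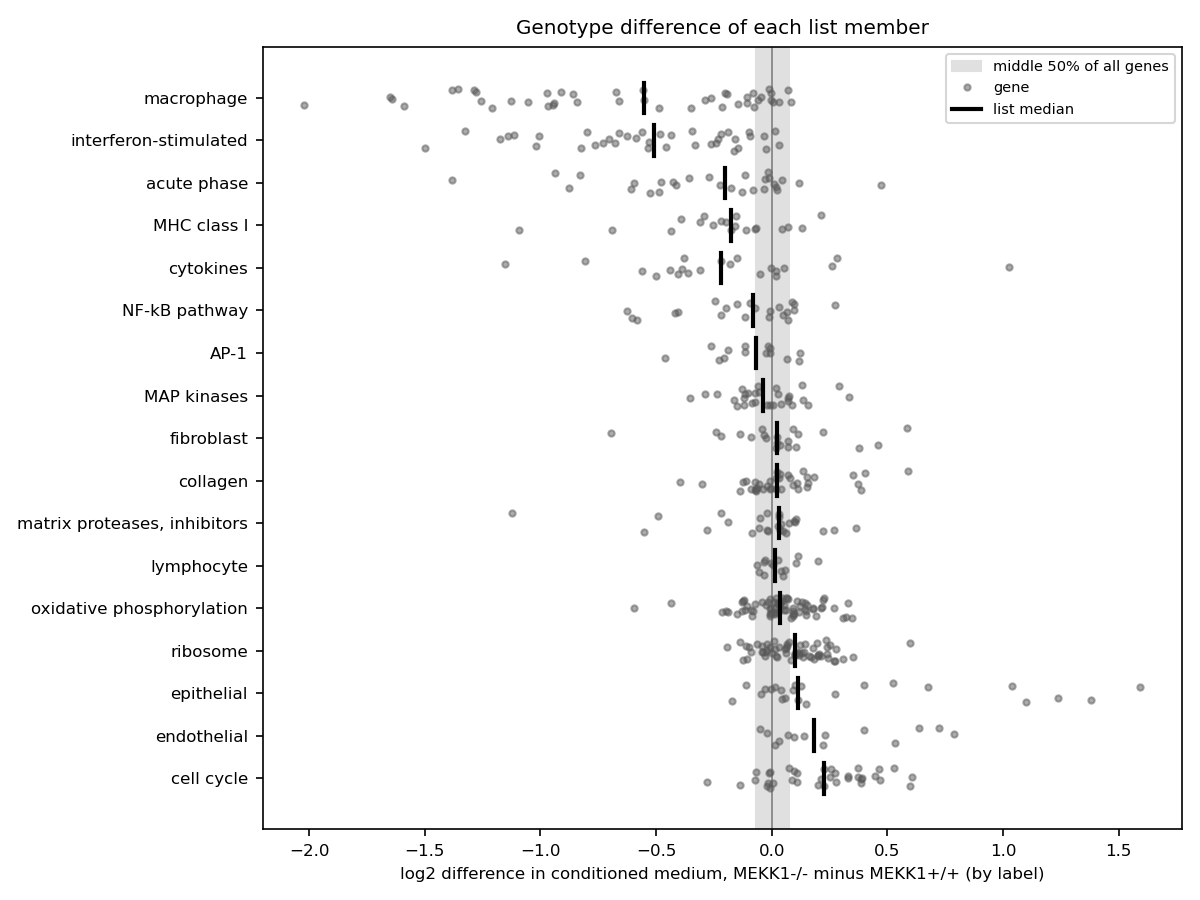
Log2 difference in conditioned medium between arrays labelled MEKK1-/- and MEKK1+/+ (x axis) for each member of 17 gene lists (rows), with a bar at the list median and a grey band over the middle 50% of all genes. The medians were -0.55 for the macrophage list, -0.51 for the interferon-stimulated list and 0.23 for the cell cycle list, and the band describes single genes, not medians.

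Of 30 MAP kinase cascade genes, 13 were higher and 17 lower with a median of -0.04, and 2 had an unadjusted p under 0.05 with a higher value (6.67%, beside 4.43% of all genes): MAP3K1 itself and MAP2K2, the ERK kinase MEK2, with a log2 difference of 0.29 (adjusted p = 0.568 from limma). Of 14 AP-1 family genes, 3 were higher and 11 lower with a median of -0.07, and 2 lower genes had an unadjusted p under 0.05 (14.3%, beside 3.65% of all genes). These 2 were BATF and MAF, at -0.23 and -0.21, neither of them above the level of no signal on all 4 arrays of a group. DUSP14, a MAP kinase phosphatase, was the only one of 15 feedback genes at that level (6.67%, beside 4.43% of all genes higher), with a log2 difference of 0.22 (adjusted p = 0.605 from limma).

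Of 22 NF-kB pathway genes, 8 were higher and 14 lower with a median of -0.08, and 3 lower genes (13.6%, beside 3.65% of all genes) had an unadjusted p under 0.05. As deposited the list median was 0.14, in values where the median gene was higher by 0.28. TRAF1, an adaptor of TNF receptors, was at 7.41, 7.33, 7.75 and 7.70 on MEKK1+/+ arrays and at 6.89, 7.17, 6.78 and 6.95 on MEKK1-/- arrays (log2 difference -0.60, standard error 0.15, adjusted p = 0.406 from limma), and since no MEKK1-/- array was above the level of no signal, it was at least 1.19-fold lower. BIRC2, a ubiquitin ligase of the same receptors, was at 8.62, 8.53, 9.07 and 8.99 against 8.15, 8.43, 8.50 and 8.51 (log2 difference -0.41, adjusted p = 0.538 from limma). IKBKG, the regulatory subunit of the IKK complex, had a log2 difference of -0.15 (adjusted p = 0.596 from limma), which turned to 0.08 in the values as deposited.

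Of 21 cytokines outside the chemokines, 15 were lower and 6 higher with a median of -0.22. IL18, a cytokine that induces interferon gamma, was at 7.83, 8.44, 8.41 and 8.28 on MEKK1+/+ arrays and at 7.63, 7.76, 7.88 and 7.69 on MEKK1-/- arrays (log2 difference -0.50, standard error 0.12, adjusted p = 0.398 from limma). Its overlap came from MEKK1+/+ replicate 1, and without that array the log2 difference was -0.64 (adjusted p = 0.0354 from limma), 1 of 2 genes then past the threshold. ACVRL1 passed in the same way without MEKK1-/- replicate 1, at 0.89 (adjusted p = 0.0068 from limma). Acute phase genes were lower in 22 of 28 with a median of -0.20. Of the 28, 0 had an unadjusted p under 0.05, beside 3.65% of all genes lower and 4.43% higher. MHC class I genes were lower in 15 of 19 with a median of -0.17. At an unadjusted p under 0.05 there was 1 member (5.26%, beside 4.43% of all genes higher). It was H2-Q1, higher by 0.21 (adjusted p = 0.538 from limma).

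The identity markers of fibroblasts were present and close between the genotypes. Of 21, 18 were above the level of no signal, 13 were higher and 8 lower, and the median was 0.02. PDGFRB, a receptor for platelet-derived growth factor, was higher by 0.38 and DPT, the matrix protein dermatopontin, lower by 0.69, with overlapping groups for both (adjusted p = 0.538 and 0.615 from limma). Of 38 collagen genes 21 were higher and 17 lower (median 0.02), and of 26 matrix metalloproteinases and their inhibitors 14 were higher and 12 lower (median 0.03). TIMP2, an inhibitor of metalloproteinases, was at 13.51, 13.20, 13.65 and 13.71 on MEKK1+/+ arrays and at 12.55, 13.11, 13.12 and 13.07 on MEKK1-/- arrays, without overlap (log2 difference -0.55, adjusted p = 0.566 from limma). TGFBR2, the type II receptor for TGF-beta, was at 11.51, 11.47, 12.01 and 11.85 against 11.30, 11.31, 11.37 and 11.29 (log2 difference -0.39, adjusted p = 0.501 from limma), also without overlap. DKK3, a secreted protein of the Dickkopf family, had a log2 difference of -0.53 (adjusted p = 0.538 from limma).

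The direction of the ribosomal protein and oxidative phosphorylation lists was set by the scaling. Of 60 ribosomal protein genes, 43 were higher with a median of 0.10 and 15 had an unadjusted p under 0.05, all higher (25%, beside 4.43% of all genes), but after scaling to the same median 17 were higher and 43 lower with a median of -0.08. Without MEKK1-/- replicate 4 the count of 15 was 8, beside 3.45% of all genes higher at that p. Of 72 oxidative phosphorylation genes, 47 were higher with a median of 0.04, and after scaling to the same median 13 were higher and 59 lower. RPL39 was higher by 0.31 and RPS25 by 0.60 (adjusted p = 0.501 and 0.494 from limma), and ATP5E, a small subunit of ATP synthase, was lower by 0.60 without overlap (adjusted p = 0.427 from limma).

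The other 17 lists had medians between -0.08 and 0.09, and none of their members passed over all genes. Of the 26 genes of the NRF2 list, the groups did not overlap for 1 that was higher and 1 that was lower. Of all genes, 2.33% were higher and 1.85% lower without overlap. SRXN1, which repairs oxidized peroxiredoxins, was at 9.32, 9.42, 9.31 and 9.80 on MEKK1+/+ arrays and at 9.12, 9.16, 8.98 and 9.07 on MEKK1-/- arrays (log2 difference -0.38, adjusted p = 0.501 from limma). PRDX1, a peroxiredoxin, was at 13.20, 13.04, 13.08 and 13.09 against 13.45, 13.37, 13.29 and 13.42 (log2 difference 0.28, adjusted p = 0.427 from limma), a direction that turned to -0.0023 after scaling to the same median. The values of these 2 genes thus lay on opposite sides. NFE2L2, which encodes NRF2, had a log2 difference of -0.22 that turned to 0.0905 in the values as deposited, where the median gene was higher by 0.28.

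Among genes of adhesion and the cytoskeleton, PTK2B, the focal adhesion kinase relative PYK2, was at 7.78, 8.08, 7.99 and 8.11 on MEKK1+/+ arrays and at 7.40, 7.71, 7.55 and 7.70 on MEKK1-/- arrays (log2 difference -0.40, adjusted p = 0.501 from limma). CNN2, an actin-binding calponin, was at 9.63, 9.44, 9.10 and 9.48 against 10.02, 9.68, 9.76 and 10.03 (log2 difference 0.46, adjusted p = 0.538 from limma). Neither gene overlapped between the groups. ITGA3, an integrin chain that binds laminin, was higher by 0.59 with MEKK1-/- replicate 1 at 8.62, far above the 7.38 to 7.89 of the other arrays of its group (adjusted p = 0.566 from limma). ALOX5AP, which presents arachidonic acid to 5-lipoxygenase in leukocytes, had the array order of the macrophage list, at 11.24, 9.92, 10.90 and 10.62 against 9.59, 11.11, 8.18 and 8.57 (log2 difference -1.31, standard error 0.59, adjusted p = 0.605 from limma). ASNS, ATF5 and SLC3A2, which belong to the response to amino acid shortage, were higher by 0.38, 0.37 and 0.38, and their groups overlapped (adjusted p from 0.566 to 0.615 by limma).

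Genes of the HOX, T-box and related families of positional identity were lower in 38 of 62 with a median of -0.03, and HOXB7 was at 10.11, 9.86, 9.75 and 9.43 on MEKK1+/+ arrays against 9.45, 9.25, 9.42 and 9.27 (log2 difference -0.44, adjusted p = 0.577 from limma), with 1 MEKK1+/+ array inside the MEKK1-/- range. Genes of glycolysis and hypoxia were lower in 21 of 28 with a median of -0.08, and the aldolase gene ALDOC was lower by 0.63 with overlapping groups (adjusted p = 0.605 from limma). SERPINE2, an inhibitor of serine proteases, was lower by 0.46, and SERPINH1, a chaperone of collagen, higher by 0.35 (adjusted p = 0.538 for both from limma). PER1, a repressor of the circadian clock, was lower by 0.42 (adjusted p = 0.568 from limma). The groups overlapped for these 3 genes. Among 323 solute carriers 157 were higher and 166 lower, of which 11 (3.41%, beside 4.43% of all genes) and 20 (6.19%, beside 3.65%) had an unadjusted p under 0.05.

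The untreated arrays gave the same comparison of genotypes in other arrays, but the 2 sets are not independent. Between the treatments, deviations of same-numbered MEKK1-/- arrays had r across genes from 0.219 to 0.505. For MEKK1+/+ replicates 1 to 4 it was -0.04, 0.485, 0.120 and 0.576. Some arrays of unlike number had as high an r. It was 0.54 for untreated MEKK1-/- replicate 4 with replicate 3 in conditioned medium, and 0.36 for untreated MEKK1+/+ replicate 1 with replicate 3 in conditioned medium. Most other pairs of unlike number had a negative r. The number is thus not a sure link between cultures. All 12 of the largest lower genes were also lower in untreated cells, with log2 differences from -2.54 to -0.42. All 12 had an unadjusted p under 0.05 there, as had 1680 of all 18132 genes in either direction. For all 12 the groups of untreated arrays overlapped. The 12 largest higher genes were all higher in untreated cells, by 0.14 to 1.23, and 9 had an unadjusted p under 0.05. HNRPA1 had the smallest untreated difference, 0.14. The groups of untreated arrays did not overlap for 2.59% of all genes on the higher side and for 2.01% on the lower side.

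**Figure D4:**
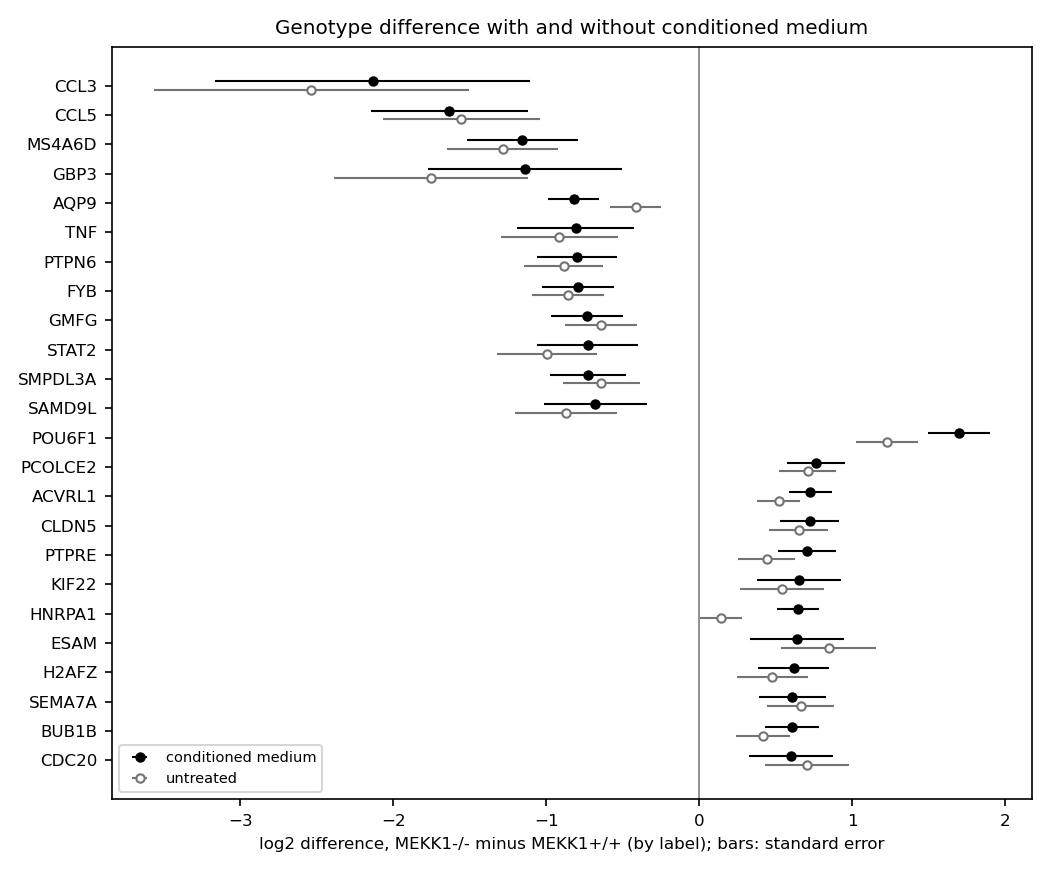
Log2 difference between arrays labelled MEKK1-/- and MEKK1+/+ (x axis) in conditioned medium (filled) and in untreated cells (open) for the 12 largest lower and 12 largest higher genes (rows), with bars of 1 standard error from limma. All 24 lay on the same side of 0 in both treatments, and CCL3 had the widest bars.

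Of the 422 genes whose groups did not overlap and were higher in conditioned medium, 341 (80.8%) were also higher in untreated cells, where 52.8% of all genes were higher, and 33 did not overlap in either treatment, 7.82% of the set in conditioned medium and 7.02% of the untreated set. Of the 335 lower genes, 247 (73.7%) were lower in untreated cells, beside 47.2% of all genes, and 23 did not overlap in either, 6.87% and 6.30% of the 2 sets. The list medians in untreated cells were -0.48 for macrophage markers, -0.68 for interferon-stimulated genes, 0.25 for the cell cycle and 0.26 for endothelial markers. The interaction of genotype with conditioned medium passed the threshold for 0 genes by limma, with 473 (2.61%) at an unadjusted p under 0.05, and with arrays of the same genotype and number as a random block, chosen after seeing the data, for 0 genes with 616 (3.40%). Of the 76 genes named by rule, 2 had an unadjusted interaction p under 0.05.

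In 17 genes, 11 higher and 6 lower, the 8 arrays labelled MEKK1-/- lay entirely on one side of the 8 MEKK1+/+ arrays. These were chosen after their values were seen. POU6F1 had the widest gap between the groups of 8, 0.51, followed by SOX18, a transcription factor of endothelial cells, with 0.17, AIF1 with 0.16 and CLDN5 with 0.10. SOX18 had log2 differences of 0.69 in conditioned medium and 0.65 in untreated cells (adjusted p = 0.523 and 0.465 from limma) and was below the level of no signal on all 4 MEKK1+/+ arrays in conditioned medium. The ribosomal protein genes RPS14 and RPS12 were higher by 0.21 and 0.16 in conditioned medium, at gaps of 0.03 and 0.02, and these 2 belong to the list whose direction depended on the scaling.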

How the data were processed

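The authors deposited 1 linear intensity per gene symbol and array for 18132 genes, from Illumina Mouse 8 arrays that a core facility hybridized, scanned and normalized. How the facility normalized the arrays, handled background and merged probes into a gene is not given in the sources used here, and non-normalized data were not analysed here. The array distributions differed, so log2 intensities were quantile normalized. The 4 groups were taken from the sample titles and entered in 1 linear model (limma 3.58.1, R 4.3.3, functions lmFit and eBayes, 12 residual degrees of freedom), with Benjamini-Hochberg adjustment over all genes and a threshold of 0.05. Single genes were tested by a 2-sided exact permutation of 4 arrays against 4. No array was left out.

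The level of no signal was the 99th percentile of 1075 olfactory receptor genes on each array, and a bound on a fold change was set against it. Named genes were MAP3K1, genes past the threshold, the 12 largest differences in each direction among genes whose groups did not overlap and that were above this level on all 4 arrays of 1 group, and up to 3 members of each of 36 lists with the smallest unadjusted p under 0.05. The members and lists were chosen with earlier results of these data known. Lists were described by counts and medians, without a set test. Gene symbols were matched to RefSeq (GRCm38.p6), of which 14305 matched a current symbol, 2905 an older one and 922 none. The fit was tested on simulated data.

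The fit was repeated on the deposited values, on arrays set to a common median, on z-scores (by limma and by the study's z-test), after normexp with an offset of 50, with a pseudocount of 16, on genes with signal, without the untreated arrays, with weights for arrays, with a mean-variance trend and robust eBayes, with a replicate block and with each array left out. A replicate block within genotype and leaving out both arrays numbered 2 were chosen after seeing the data.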

Additional observations from a re-analysis of the deposited data

Results flagged for a closer look

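In 18 of 224 groups of 4 arrays, covering the named genes and the list levels in conditioned medium, the highest or lowest array stood apart from the other 3 by more than Dixon's 95% critical value for its gap. Chance flags about 1 in 20 groups, and genes of a list are not independent. MEKK1-/- replicate 1 accounted for 7 of these. On it GBP3 was 8.20 (others from 9.65 to 9.95), ESAM 8.97 (others from 7.85 to 8.03), SEMA7A 9.05 (others from 8.26 to 8.37) and TIMP2 12.55 (others from 13.07 to 13.12). The list levels on this array were -0.55 for interferon-stimulated genes, 0.99 for epithelial markers and 0.50 for endothelial markers.

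On MEKK1-/- replicate 2 PTGS1, a cyclooxygenase, was 8.24 (others from 8.56 to 8.57), the adipocyte list was 0.0860 and the contractile list -0.34. On MEKK1-/- replicate 3 ATP5F1, a subunit of ATP synthase, was 11.51 (others from 11.65 to 11.67). On MEKK1-/- replicate 4 HNRPA1 was 9.47 (others from 9.27 to 9.29) and the sterol synthesis list -0.20.

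On MEKK1+/+ replicate 1 MAP2K2 was 11.28 (others from 10.94 to 10.98) and HGF, hepatocyte growth factor, 7.68 (others from 8.03 to 8.08). On MEKK1+/+ replicate 2 MS4A6D was 8.76 (others from 9.56 to 9.67) and the ribosomal protein list 0.11. On MEKK1+/+ replicate 4 H2AFZ was 11.96 (others from 12.53 to 12.63).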

How the results depend on the processing

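The number of genes past the threshold was 7 after scaling to the same median, 460 by the z-test and 0 without the untreated arrays or without both arrays numbered 2, where 1415 and 2189 genes had an unadjusted p under 0.05. With 1 array left out it ran from 0 to 2. At an unadjusted p under 0.05 there were 7177 genes as deposited, 2330 by the z-test and 708 after the filter on genes without signal, which leaves fewer genes to test. The log2 difference of POU6F1 was 1.66 without the untreated arrays and 1.79 without both arrays numbered 2, and ran from 1.55 to 1.89 with 1 array left out. The median of the endothelial list was 0.49 as deposited and 0.53 after the filter, which CLDN5 and EMCN pass only through MEKK1-/- arrays, where they are high, so the latter value supports nothing. As deposited, 4 lower genes turned: IKBKG (0.0832), 9530027K23RIK (0.14), NFE2L2 (0.0905) and SLC35A1 (0.0075). In those values the median gene was higher by 0.28. After scaling to the same median 2 higher genes turned: PRDX1 (-0.0023) and IGFBP7 (-0.0404). The cause was not tested. Of 116 results, 4 turned and 28 moved by more than the replicate SD or 1.5 times as deposited, 2 and 8 after scaling to the same median, and none with array weights, normexp, a pseudocount of 16, or eBayes with trend and robust. Same-numbered arrays of the 2 genotypes in conditioned medium had r across genes from -0.263 to 0.234, of both signs. The numbers were therefore not taken to pair the genotypes, although no cutoff for r was set. With the replicate block POU6F1 was again the 1 call, at 1.70 (adjusted p = 0.00634 from limma), and 1485 genes had an unadjusted p under 0.05. No other named call changed with the block. Low signal limits genes near the level of the olfactory receptors.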
